A study of Homo sapiens with 20 samples.

Results

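Of 130806 regions marked by H3K4me1 on chromosomes 1 to 22 of HCT116 cells, 1367 (1.05%) kept called H3K4me1 and H3K27ac peaks when the methyltransferase MLL4 was absent and carried no H3K4me3 peak. They were chosen by H3K4me1, H3K27ac and H3K4me3 peaks as follows. The H3K4me1 peak lists of wild-type (WT) and MLL4-knockout (KO) cells were merged where they overlapped by at least 1 bp. A region entered the set if it held an H3K4me1 peak of both genotypes, overlapped an H3K27ac peak in each of the 4 H3K27ac lists, and overlapped no peak of any of the 4 H3K4me3 lists. The values of these 3 marks are therefore given as a description without a test. MLL4, MLL1 and p53 were not used. The regions are called retained enhancers here because they carry both enhancer marks and no promoter mark, but the values below show that what was retained was a called peak, at a lower level and over a shorter stretch.

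H3K4me1, monomethylation of lysine 4 on histone H3, is found on enhancers and beside promoters. H3K27ac, acetylation of lysine 27 on the same histone, is added at enhancers and promoters in use, whereas H3K4me3 marks promoters. MLL4, encoded by KMT2D, is the main H3K4 monomethyltransferase of enhancers in many cell types, and it acts in a complex that includes the H3K27 demethylase UTX and works with the acetyltransferase p300. MLL1, encoded by KMT2A, is a related methyltransferase known best for its role at promoters and HOX genes. p53 is a tumour suppressor and transcription factor that binds many enhancers, also in cells that have not been stressed. HCT116 is an established human colorectal carcinoma line.

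The study asked how MLL4 and p53 work together on chromatin, and 6 targets were profiled by chromatin immunoprecipitation and sequencing (ChIP-seq) in cells of the genotypes labelled MLL4WT and MLL4KO, both grown in DMEM with fetal bovine serum. The labels name no agent that activates p53, and how the knockout was made, and whether it is 1 clone, is not given in the sources used here. Each genotype had 2 libraries of H3K27ac, of H3K4me3 and of p53, and a single library of H3K4me1, of MLL4 and of MLL1, so the values of the last 3 have no replicate check. The labels do not say that replicates were separate cultures, so a p-value measures only the spread between libraries, which may be technical. Lists held 122917 H3K4me1 peaks in WT and 42864 in KO, 137489 and 196645 H3K27ac peaks in WT and 64367 and 61228 in KO, and between 17878 and 20380 H3K4me3 peaks. They held 55887 MLL4 peaks in WT and 257 in KO, 36419 and 28515 MLL1 peaks, and 36046, 31953, 24766 and 61530 p53 peaks in WT replicates 1 and 2 and KO replicates 1 and 2. Read depth is unknown. Each fold enrichment is the authors' own value for a peak over its local background, and the highest peak of a list that overlaps a region stands for the region. In such bulk samples, fewer cells carrying a mark and less mark per cell cannot be told apart.

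Of the retained enhancers, 126 (9.22%) overlapped 1 or more RefSeq windows, 164 windows in all. Each window runs from 250 bases before to 50 after a transcript's start. The set of windows is not complete, so further regions may overlap a start. A protein-coding start of this set lay inside 5.05% of the retained enhancers and 5.04% of all H3K4me1 regions. These windows are where the regions' sequence could be read, since no genome sequence of the build was used here. An H3K27ac peak of both WT lists lay on 149 of the 164 windows. The absence of H3K4me3 was asked of the regions, and a window may reach beyond its region. The AP-1 motif TGACTCA, bound by FOS and JUN proteins, was found on either strand in 15 of them (9.15%) and in 1657 of all 33725 windows (4.91%). In 7 of the 15, H3K27ac lay on the window in all 4 lists, and so it did in 68 of all 164 windows. The 250 bases before the start are shown for the windows at SEPTIN9, which encodes a septin of the cytoskeleton, and at LYST, which encodes a regulator of lysosomal trafficking, because both held TGACTCA (in capitals) under H3K27ac of all 4 lists, and for the windows at NEURL1, which encodes a ubiquitin ligase, and OTOP3, which encodes a proton channel, because p53 lay on them in all 4 lists. The sequences are from RefSeq on GRCh38.p14 and are written 5′ to 3′ on the strand of the gene.
SEPTIN9, chr17:77450499-77450748, plus strand: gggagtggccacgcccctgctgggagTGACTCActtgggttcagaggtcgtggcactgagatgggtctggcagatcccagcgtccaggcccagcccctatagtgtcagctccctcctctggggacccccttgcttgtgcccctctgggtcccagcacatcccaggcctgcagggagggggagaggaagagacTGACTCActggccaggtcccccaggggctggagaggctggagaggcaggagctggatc
LYST, chr1:235883709-235883958, minus strand: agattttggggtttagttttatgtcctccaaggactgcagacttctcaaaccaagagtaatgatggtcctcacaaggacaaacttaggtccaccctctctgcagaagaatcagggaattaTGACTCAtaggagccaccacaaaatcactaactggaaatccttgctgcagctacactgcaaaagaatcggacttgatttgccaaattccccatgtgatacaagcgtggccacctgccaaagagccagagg
NEURL1, chr10:103493455-103493704, plus strand: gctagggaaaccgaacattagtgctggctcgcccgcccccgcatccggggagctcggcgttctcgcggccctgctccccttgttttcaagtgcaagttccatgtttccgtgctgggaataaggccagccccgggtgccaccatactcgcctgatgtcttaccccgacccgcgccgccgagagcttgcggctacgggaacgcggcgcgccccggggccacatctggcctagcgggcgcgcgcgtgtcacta
OTOP3, chr17:74935648-74935897, plus strand: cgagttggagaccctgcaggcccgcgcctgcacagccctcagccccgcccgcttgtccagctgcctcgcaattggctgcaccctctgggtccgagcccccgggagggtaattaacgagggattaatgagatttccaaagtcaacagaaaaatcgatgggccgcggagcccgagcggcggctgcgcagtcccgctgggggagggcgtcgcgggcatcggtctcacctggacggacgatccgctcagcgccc
At the SEPTIN9 window H3K27ac fold enrichment was 12.3 and 15.3 in WT and 5.76 and 4.06 in KO, and at LYST it was 4.51 and 3.31 against 2.49 and 3.13. Both KO values were below both WT values at each of the 2 windows.

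Other motifs were searched on both strands of the same windows. CATTCC (TEAD factors) was found in 18 windows (11%; 14.0% of all windows), TGTTTAC (FOX factors) in 4 (2.44%; 3.45%), CTTTGAT (TCF/LEF factors of the Wnt pathway) in 5 (3.05%; 2.60%) and CAAAGTCCA (HNF4) in 2 (1.22%; 0.397%). The core of the p53 element, CATG repeated after 6 other bases, was found in none of the 164 (0.374% of all windows), and the full p53 consensus in none either (0.0178%). A match is a description of letters and not a bound site. The 2 p53 motifs overlap each other.

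The regions also held 17 mature sequences of 12 microRNA genes, and each had a seed (bases 2 to 8, in capitals) of its own. The 4 shown are those of let-7a-2, a member of a tumour-suppressive microRNA family whose region belongs to a locus described below, of miR-936, in the region assigned to COL17A1, and of miR-129-1. The sequences are from RefSeq on GRCh38.p14.
hsa-let-7a-5p, chr11:122146568-122146589, minus strand: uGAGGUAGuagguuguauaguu
hsa-let-7a-2-3p, chr11:122146523-122146544, minus strand: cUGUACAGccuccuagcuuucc
hsa-miR-936, chr10:104048151-104048172, minus strand: aCAGUAGAgggaggaaucgcag
hsa-miR-129-1-3p, chr7:128207920-128207941, plus strand: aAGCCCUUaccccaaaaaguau
The retained enhancer over MIRLET7A2 (chr11:122144070-122148836) had H3K27ac fold enrichments of 12.3 and 6.68 in WT and 5.68 and 8.76 in KO, so the genotypes overlapped, and an MLL1 peak of 5.37-fold in WT only. The one over MIR129-1, whose nearest gene is LEP (chr7:128207861-128212677), had 7.79 and 7.80 in WT and 4.26 and 3.33 in KO, without overlap.

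H3K4me1 at the retained enhancers was a short, weak remnant in KO. In WT the median region was covered by H3K4me1 peaks over 3416 bp, and in KO over 606 bp. The median region kept 18% of its covered bases, and only 40 regions (2.93%) had more covered bases in KO than in WT. The median fold enrichment was 6.41 in WT and 3.47 in KO, and it was lower in KO at 1277 regions (93.4%). For comparison, the 15089 regions with H3K4me1 in both genotypes, H3K27ac in all 4 lists and H3K4me3 had medians of 3423 bp in WT and 1667 bp in KO. These values come from 1 library per genotype, and whether a weaker enrichment of the KO library as a whole contributes was not tested. The set began with the 27418 merged regions called in both genotypes (21% of all), of which 21217 overlapped H3K4me3 and 6201 did not. Of the WT regions that had H3K27ac in both WT lists and no H3K4me3, 3.88% were in the set.

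**Figure D1:**
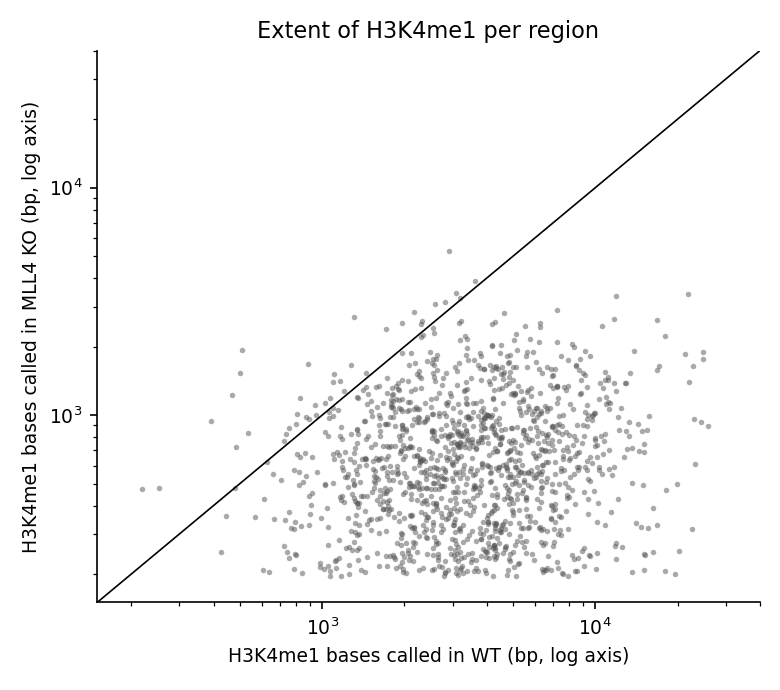
H3K4me1 in WT and KO at the 1367 retained enhancers, with each point 1 region. The axes give the bases covered by H3K4me1 peaks (log scales) and the line marks equal coverage. Most points lie below the line, and the medians are 3416 bp in WT and 606 bp in KO.

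A WT H3K27ac summit lay inside 1346 of the regions, and the KO H3K4me1 peak covered the strongest one in 480 (35.7%). A shorter peak covers a given base less often, and whether its position within the region differs from that of the WT peak was not tested. H3K27ac of KO replicate 1 covered that summit in 997 (74.1%) and of KO replicate 2 in 913 (67.8%). All 3 KO lists covered it in 353 regions (26.2%), and neither KO H3K27ac list did in 223 (16.6%). The KO H3K4me1 peak overlapped H3K27ac peaks of both KO lists in 865 regions (63.3%), so in 502 regions the 2 marks were kept in the same region but not on the same bases in both lists.

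Many KO calls lay near the calling limit. The median −log10 q-value of H3K4me1 was 11.9 in WT and 1.88 in KO, and 777 regions (56.8%) were below 2 in KO. At 5 or more stood 33 regions (2.41%) in KO and 1209 (88.4%) in WT, and among all KO H3K4me1 peaks 4134 (9.64%) did. Just outside the set, 844 regions missed 1 H3K27ac list: 44 missed WT replicate 1, 126 WT replicate 2, 283 KO replicate 1 and 391 KO replicate 2. Just inside, H3K27ac of KO replicates 1 and 2 had a −log10 q-value below 2 in 27 and 25 regions. On the side of H3K4me3, 509 regions with H3K27ac and H3K4me1 throughout were left out for a peak in a single H3K4me3 list, with a median fold enrichment of 5.05, against 115.4 for the 13101 with a peak in all 4.

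H3K27ac at the retained enhancers was lower in KO at most regions, and the median difference was smaller than over all H3K4me1 regions with the mark in all 4 lists. The median fold enrichment was 8.11 and 8.92 in WT replicates 1 and 2 and 5.16 and 5.41 in KO replicates 1 and 2. H3K27ac peaks covered a median of 1943 and 1908 bp in WT and 993 and 782 bp in KO. Both KO values were below both WT values at 974 regions (71.3%), a share that was 80.6% over all H3K4me1 regions with H3K27ac in all 4 lists. They were above both WT values at 45 regions (3.29%; 1.96% over all such regions), and the genotypes overlapped at 348. The median log2 KO over WT fold was −0.67, a ratio of 0.629, and the 4 WT-KO library pairs gave values from −0.77 to −0.60. It was −0.87 over all regions with H3K27ac in all 4 lists, outside the range of the 4 pairs. It was −0.90 over those with H3K4me3, and −0.80 over the 5744 regions with H3K27ac in all 4 lists, H3K4me1 in WT only and no H3K4me3, where the 4 pairs ranged from −0.95 to −0.65 and so overlapped those of the retained enhancers. Against these last regions at equal width and WT H3K27ac fold, values weighted over classes were −0.71 at the retained enhancers and −0.84 at the others. They are not plain medians over regions. H3K27ac was used to choose the regions, so no test was made of these values.

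**Figure D2:**
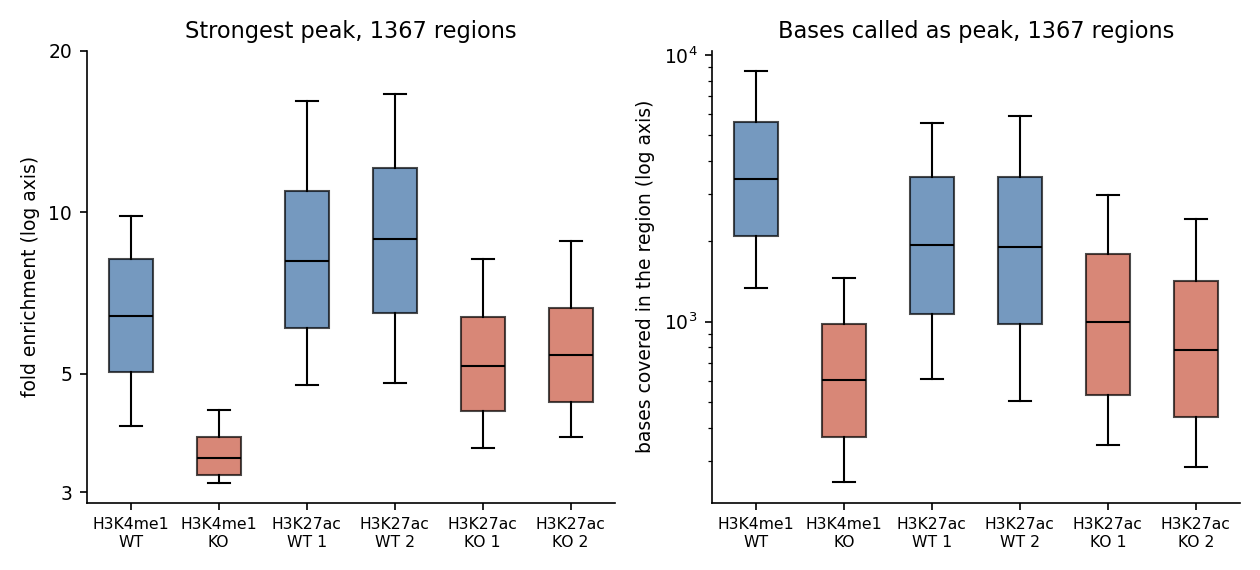
Fold enrichment and covered bases of H3K4me1 and H3K27ac at the 1367 retained enhancers in each list, with the median, quartiles and 10th to 90th percentiles over regions. Both KO H3K27ac lists (medians 5.16 and 5.41) lie below both WT lists (8.11 and 8.92).

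**Figure D3:**
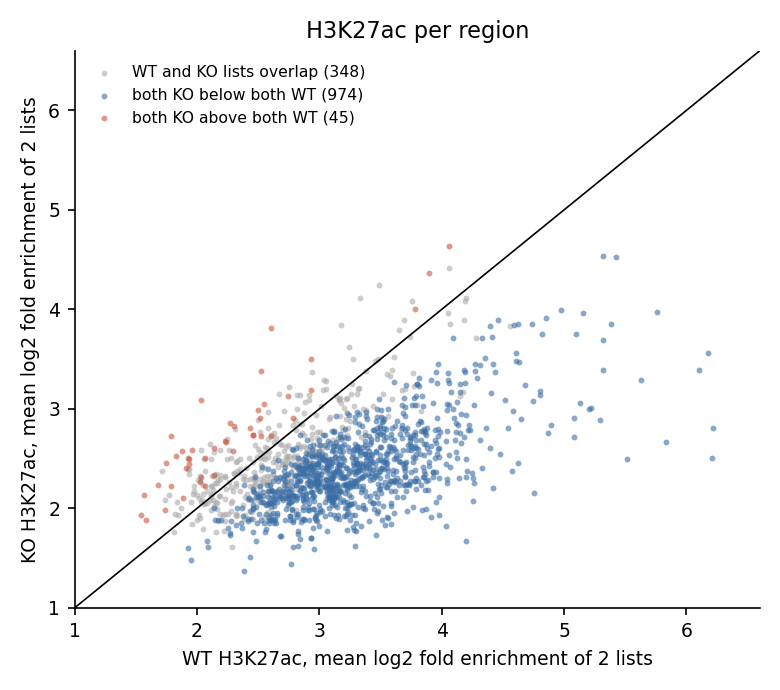
Mean log2 H3K27ac fold enrichment of the 2 KO lists against that of the 2 WT lists at the 1367 retained enhancers, with each point 1 region and the line marking equal values. Colours separate the 974 regions with both KO values below both WT values, the 45 with both above and the 348 that overlap.

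The lowest KO over WT values were at regions with very strong H3K27ac in WT. This follows in part from the rule, which asked for called KO peaks. Their lowest fold was 2.27 in KO replicate 1 and 2.15 in KO replicate 2, so a very low ratio needs a strong WT peak. At CASKIN1, which encodes a synaptic scaffold protein (chr16:2165170-2185392), fold enrichment was 82.5 and 66.1 in WT and 5.16 and 6.27 in KO (log2 −3.70). Near WNT7B, which encodes a Wnt ligand (chr22:45994528-45998898), it was 72.3 and 77.0 against 6.06 and 8.10 (−3.41). Over an end of FAM53A (chr4:1563041-1575868) it was 54.4 and 59.8 against 6.36 and 6.31. The groups did not overlap at any of these, and the same held at KCNK4, which encodes a potassium channel (52.6 and 39.6 against 6.36 and 4.99). At CASKIN1, WNT7B, FAM53A and KCNK4 the strongest peaks had their summits outside the region in 1 or more lists. Their values may thus describe H3K27ac beside the region. At CASKIN1, WNT7B and KCNK4 the strongest WT summit inside the region, if there was one, was not covered by KO H3K27ac peaks of both lists. Other summits were not checked. At PTPRF, which encodes a receptor tyrosine phosphatase (chr1:43572834-43589082), all summits were inside, with WT values of 63.1 and 74.9 and KO values of 10.2 and 10.7 (−2.71). The strongest WT H3K27ac summit inside a region was thus not always covered in both KO lists. A very wide region was also lower in KO. At TKT, the transketolase gene, a region of 24832 bp had 36.2 and 37.5 in WT and 7.86 and 8.10 in KO. In all, 25 regions (1.83%) had a mean log2 difference below −2, a smaller share than the 3.95% of all H3K4me1 regions with H3K27ac in all 4 lists. Widths ranged from 425 to 25924 bp around a median of 3530 bp.

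The mean log2 difference was above 0 at 155 regions (11.3%; 6.77% of all H3K4me1 regions with H3K27ac in all 4 lists), and both KO values were above both WT values at 45 of the regions. The highest was near ARHGAP18, which encodes a GTPase-activating protein (chr6:129743354-129746186), with 8.33 and 4.43 in WT and 13.9 and 14.3 in KO (log2 1.21). Near TMEM106C (chr12:47941646-47944264) the values were 3.59 and 4.64 against 8.16 and 8.84 (1.06), and near OLFM2 (chr19:9944607-9946385) 2.70 and 4.43 against 5.16 and 8.47. At these 3 regions both KO libraries stood above both WT libraries. The same order was seen near KRR1 (6.92 and 4.76 against 8.77 and 12.3), 121782 bp from the gene, and near SLC46A2 (2.79 and 4.05 against 5.13 and 5.88).

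The regions with the strongest H3K27ac in KO included some above WT, some below it and some where the genotypes overlapped. Another region near ARHGAP18 (chr6:129747267-129753325) had 21.3 and 13 in WT and 22.8 and 27 in KO. Inside TOX2, which encodes an HMG-box transcription factor (chr20:43968461-43978770), the values were 52.3 and 35.3 against 17.9 and 29.8, and inside BMERB1 (chr16:15586538-15594951) 42.8 and 37.2 against 24.6 and 21.8. TOX2 and BMERB1 were lower in KO without overlap, while ARHGAP18 was higher. Near ERRFI1, which encodes a feedback inhibitor of the EGF receptor (chr1:8043226-8049466), the genotypes overlapped, with 14.6 and 23.2 in WT and 15.2 and 19.8 in KO. They also overlapped at CMIP (15.9 and 20.8 against 16 and 18) and at a region 100557 bp from ITPRID2 (20.6 and 13.4 against 19.3 and 23.8). A region whose nearest gene is JARID2, which encodes a cofactor of Polycomb repressive complex 2, lay 501015 bp from it and had 15.7 and 14.2 in WT and 17.7 and 23.9 in KO.

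MLL4 itself was called at a minority of the retained enhancers. In WT, 385 of the 1367 (28.2%, 95% Wilson interval 25.8 to 30.6) overlapped an MLL4 peak, and all but 1 of these had none in KO. The share with MLL4 in WT only was 28.1% (384 regions), against 10.9% of all H3K4me1 regions. In KO, 2 regions (0.146%; 0.0398% of all regions) had an MLL4 peak: one whose nearest gene is OR11H1 on chromosome 22, 3710219 bp away, with 5.00-fold in WT and 12.9-fold in KO, and one near PRAMEF22, with 5.16-fold in KO only. MLL4 peaks were weak, with a median fold of 4.17 at the retained enhancers. The strongest lay at ANKRD11, a chromatin regulator gene (chr16:89286396-89307734, 51.6-fold), near CPNE7 (30.0), near SPG7, which encodes a mitochondrial protease (17.0), at P4HB, which encodes protein disulfide isomerase (13.7), and near PLEC, the plectin gene (13.5). The WT-only regions with H3K27ac in all 4 lists had MLL4 in 22.5%. Weighted to the same 30 classes of width and WT H3K27ac fold as the retained enhancers, they had it in 28.6%, against 28.2% at the retained enhancers, which is inside the interval of the retained enhancers. With WT H3K4me1 fold made equal too, the shares were 28.4% at the retained enhancers and 26.3% at the others. Regions that lost both H3K4me1 and all KO H3K27ac were compared at equal width and H3K27ac, over 1195 retained enhancers. There MLL4 was at 24.6% of the retained enhancers and 29.2% of the lost regions. With WT H3K4me1 fold made equal too, over 1066 retained enhancers, the difference was −1.67 percentage points. All shares have intervals that cover counting error over regions only, and regions are not replicates of the libraries.

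MLL1 was called at a larger share of the retained enhancers than of comparable regions, in both genotypes. It was called at 348 of them in WT (25.5%, 23.2 to 27.8) and at 324 in KO (23.7%, 21.5 to 26.0). Among the WT-only regions with H3K27ac in all 4 lists the shares were 13.5% and 13.1%, and at equal width and H3K27ac 18.5% and 17.1%, so the retained enhancers were 6.95 and 6.64 percentage points higher. With WT H3K4me1 fold made equal too, over 1352 retained enhancers, the shares were 25.4% against 19.5% in WT and 23.8% against 15.9% in KO. With the presence of an H3K4me3 peak within 5 kb made equal, they were 25.2% against 18.5% and 23.7% against 17.0%. Against regions that lost both H3K4me1 and all KO H3K27ac, over 1195 retained enhancers, they were 21.8% against 11% and 20.6% against 12%. When a −log10 q-value of at least 5 was asked for in all lists, 22 regions met the rule and the difference was 1.07 points in WT and 11.7 in KO. With 1 MLL1 library per genotype, no test of these differences was made.

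The MLL1 peaks of the 2 genotypes were largely on different regions. MLL1 was called in both genotypes at 130 retained enhancers (9.51%; 10.1% of all H3K4me1 regions), in WT only at 218 (15.9%; 4.33%), in KO only at 194 (14.2%; 4.61%) and in neither at 825 (60.4%; 80.9%). Among the WT-only enhancers with H3K27ac in all 4 lists the shares were 3.43%, 10.0%, 9.71% and 76.8% in the same order, without weighting for width. The split of MLL1 peaks between genotypes was thus not particular to the retained enhancers. The median fold of the strongest MLL1 peak was 4.30 in WT and 4.53 in KO. Where both had a peak, the highest KO values were 75.9 near MRPS27, a mitochondrial ribosomal protein gene (24.1 in WT), 40.2 at ANKRD11 (11.7 in WT), and 17.5 near both MYOM2 (6.98 in WT) and PLEC (6.76 in WT). At MRPS27 H3K27ac was 46.8 and 52.1 in WT and 19.6 and 4.88 in KO, a mean log2 difference of −2.34 that became −0.50 when overlaps of at least 200 bp were asked for. This region lay 24 bp from an H3K4me3 peak, and its strongest H3K27ac peaks had summits outside it in 1 or more lists. Whether its MLL1 and H3K27ac peaks belong to the neighbouring H3K4me3 peak was not tested. The strongest peaks in KO only were near TCF3, which encodes an E-protein transcription factor (14.2), near FAM53A (chr4:1628849-1629886, 13.6), at CASKIN1 (11), near SPG7 (10.5), near SLX9 (9.71) and near LMO2, a haematopoietic cofactor gene (9.07).

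The number of retained enhancers with p53 in KO replicate 1 was between those of the 2 WT lists, and it was higher in KO replicate 2, whose list is the longest. It was called at 278 (20.3%) and 244 (17.8%) in WT replicates 1 and 2, and at 277 (20.3%) and 616 (45.1%) in KO replicates 1 and 2. The KO libraries overlap the WT libraries in this measure. The mean share was 19.1% ± 1.76 (SD, n = 2) for WT libraries and 32.7% ± 17.5 (SD, n = 2) for KO libraries, a difference of 13.6 percentage points with a two-sided exact permutation p of 0.667. With 2 libraries against 2 the smallest p is 0.333. Without KO replicate 2 the difference was 1.17 points, without KO replicate 1 it was 26.0, and with the 4 lists made equally long it was 5.82. All 4 lists had p53 at 156 regions (11.4%; 6.39% of all H3K4me1 regions) and none at 715 (52.3%; 80.8%). KO replicate 2 alone had it at 261 (19.1%; 5.75%), both KO lists without any WT list at 70 (5.12%; 1.44%), and both WT lists without any KO list at 6 (0.439%; 0.352%).

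Where p53 was called in all 4 lists, its median fold enrichment was lower in both KO lists than in both WT lists. The 156 regions had median folds of 9.82 and 16 in the WT lists, and of 5.62 and 7.61 in the KO lists. The mean of the median log2 values differed by −0.94 (two-sided exact permutation p = 0.333, the smallest possible). Both KO values were below both WT values at 110 of the 156 (70.5%; 53.1% of all H3K4me1 regions with p53 in all 4 lists), where the medians were 9.82, 18.8, 7.12 and 8.89. Strong examples were near NBPF1 (27.7 and 58.0 in WT, 9.70 and 13.6 in KO), near ANO9 (27.2 and 40.2 against 8.37 and 15.2) and near PDXDC1 (18.5 and 45.5 against 8.18 and 12.8). NBPF1 and PDXDC1 belong to families of near-identical copies, as do OR11H1 and PRAMEF22, and how reads that fit several copies were treated is not given here, so the positions of these peaks are uncertain. CPNE7 differed less, with 9.82 and 17.6 against 9.19 and 9.06. At CASKIN1, the region of the lowest KO over WT H3K27ac value, p53 was 15.1 and 32.4 in WT and 10.5 and 11.9 in KO. At equal width and H3K27ac, the p53 shares at retained enhancers and at WT-only enhancers with H3K27ac in all 4 lists lay close together. They were 20.3% against 22.7% and 17.8% against 18.5% in WT, and 20.3% against 18.1% and 45.1% against 45.0% in KO. With WT H3K4me1 fold made equal too, the shares were 20.4% against 19.3%, 18% against 15.5%, 20.3% against 15.8% and 45.3% against 41.1% in the same order. At equal width and H3K27ac the KO minus WT change of the difference between retained and these WT-only enhancers was 2.62 points (two-sided exact permutation p = 0.333). Against regions that lost both H3K4me1 and all KO H3K27ac, over 1195 retained enhancers, p53 shares were lower in both WT lists and higher in both KO lists. They were 17.7% against 24.96% and 15.5% against 19.8% in WT, and 17.2% against 12.3% and 42.2% against 37.4% in KO. With WT H3K4me1 fold made equal too, the differences were −1.73, −0.397, 6.07 and 10.6 points in the same order. These differences were not tested.

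**Figure D4:**
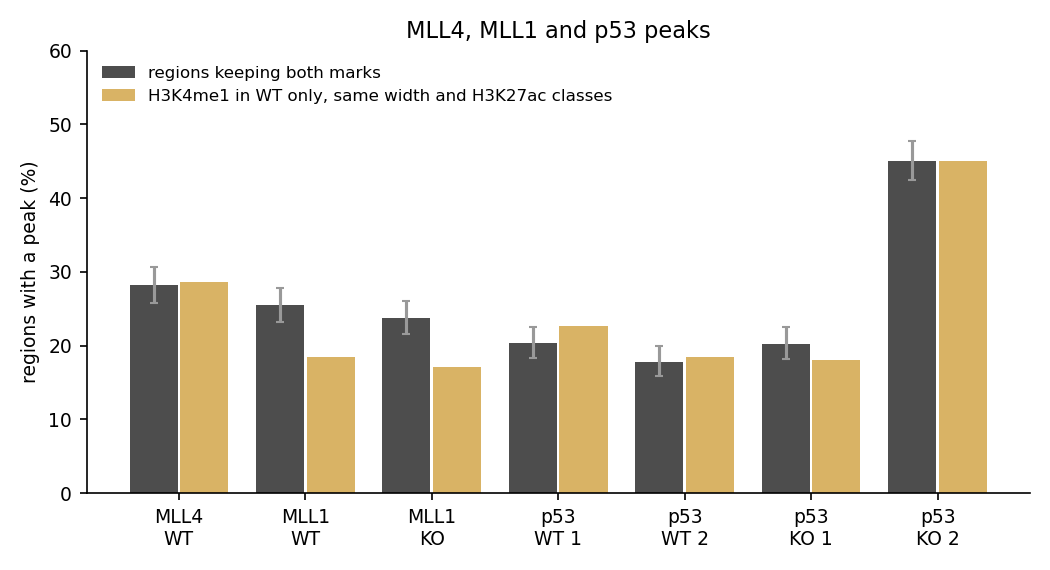
Share of regions (percent) with an MLL4, MLL1 or p53 peak in each list, for the 1367 retained enhancers (dark bars) and the WT-only enhancers with H3K27ac in all 4 lists weighted to equal width and H3K27ac (light bars). Error bars are 95% Wilson intervals for counting error. MLL1 stands higher at the retained enhancers in both genotypes (25.5% and 23.7%, against 18.5% and 17.1%), and MLL4 does not (28.2% against 28.6%).

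Retained enhancers with MLL4 in WT more often had p53 and MLL1 of KO, and they were also wider and more strongly acetylated in WT. MLL1 of WT differed less at equal width and H3K27ac. Regions with MLL4 in WT had a median width of 4959 bp and a median log2 H3K27ac difference of −0.88, against 3130 bp and −0.57 without it. MLL1 was called in KO at 42.9% of regions with MLL4 in WT and 16.2% of those without, and p53 of WT replicate 1 at 46.8% and 9.98%. Within classes of equal width and WT H3K27ac fold the gap in MLL1 of KO stayed, at 42.9% against 19.98%, while that in MLL1 of WT was 35.1% against 29.6% and that in H3K27ac −0.89 against −0.83. Regions with p53 in all 4 lists, compared in the same way with regions without p53, had MLL4 in 71.6% against 18.8%, MLL1 of KO in 61.9% against 13.6% and MLL1 of WT in 36.8% against 33.6%. MLL4 of WT met MLL1 of KO on 12.07% of retained enhancers and on 6.01% of WT-only enhancers with H3K27ac in all 4 lists. MLL4 met p53 of both WT lists on 11.05% and 7.47%, without weighting for width. The separate share of each factor was also lower at the WT-only enhancers, so the overlap was not shown to be particular to the retained enhancers. At 454 regions (33.2%) no MLL4, MLL1 or p53 peak was called in any list, against 70.5% of all H3K4me1 regions and 43.5% of the WT-only enhancers with H3K27ac in all 4 lists, without weighting for width. No test was made of these shares, since each pair of lists is 1 comparison of 2 libraries.

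Most peaks of the 3 factors lay more than 500 bp from the strongest H3K27ac summit of the region. The median distance from a factor's summit to the strongest WT H3K27ac summit of the region was 1420 bp for the 664 MLL4 peaks of WT, 1070 bp for the 469 MLL1 peaks of WT and 995 bp for the 429 of KO. For p53 it was 1555 and 1513 bp in WT and 1068 and 1192 bp in KO. Within 500 bp lay 26.4% of the MLL4 peaks, 33.3% and 38.9% of the MLL1 peaks, 23.9% and 24.1% of the WT p53 peaks and 33.0% and 30.9% of the KO p53 peaks. Both KO p53 lists were closer to the summit than both WT lists.

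**Figure D5:**
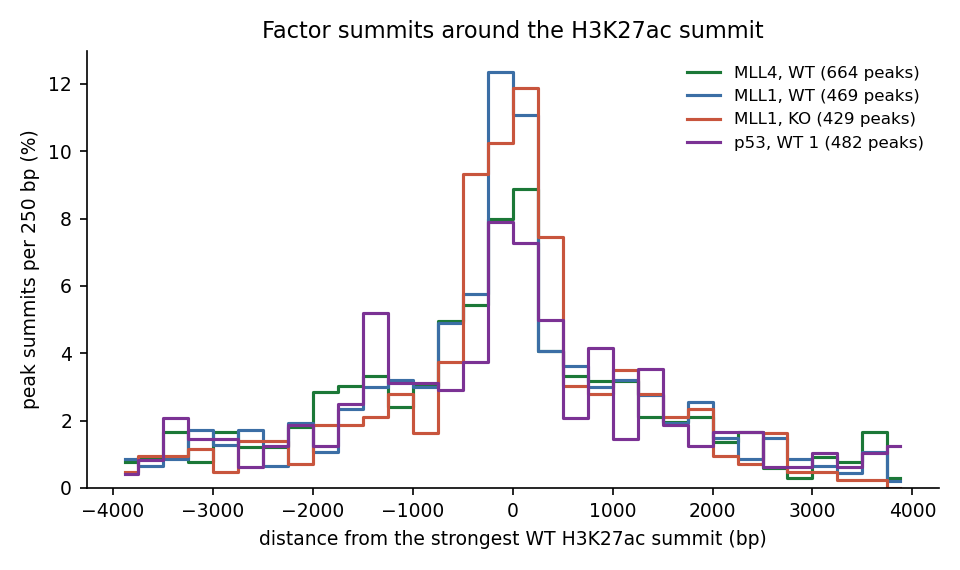
Distance (bp) from each MLL4, MLL1 and p53 peak summit to the strongest WT H3K27ac summit of the same retained enhancer, as the percent of a list's peaks per 250 bp, for MLL4 of WT, MLL1 of both genotypes and p53 of WT replicate 1. All 4 lines peak near 0, and within 500 bp lie 38.9% of the MLL1 peaks of KO and 23.9% of the p53 peaks.

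In the promoter windows shown above, p53 and lasting H3K27ac were partly apart. Of the 164 windows, 16 had p53 in all 4 lists, and each of these 16 had H3K27ac on it in both WT lists, but 8 had none in either KO list. Over all windows, 149 had H3K27ac in both WT lists and 43 of these had none in KO. At NEURL1 p53 was 13.7 and 38.9 in WT and 7.02 and 11.4 in KO, and H3K27ac on the window was 8.14 and 10.0 in WT and not called in KO. At another window of SEPTIN9 (start at position 77373337 of chromosome 17) p53 was 15.9 and 36.6 against 7.15 and 6.98, and H3K27ac was 10.4 and 13.8 in WT and again not called in KO. At OTOP3 p53 was 11.9 and 30.3 against 9.19 and 8.25. None of the 16 windows held any of the motifs searched. H3K27ac was kept elsewhere in each of these regions, since that was a condition for entering the set.

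Retained enhancers were spread over many genes. The nearest end of a protein-coding gene was up to 100 kb away for 1242 regions (90.9%), which were assigned to 1089 genes, 5.70% of the 19122 on chromosomes 1 to 22. Of these genes, 965 had 1 region and 19 had 3 or more. A protein-coding gene spanned 804 regions (58.8%) at least in part, and the median distance to a gene end was 12060 bp. An H3K4me3 peak lay within 5 kb of 351 regions (25.7%), close to the 25.2% of WT-only enhancers with H3K27ac in all 4 lists, and within 1 kb of 19 (1.39%), against 0.522% of the WT-only enhancers. Chromosome 17 held 168 of the regions (12.3%), against 5.49% of all H3K4me1 regions and 8.28% of the WT enhancers from which the set was drawn. Chromosome 21 held 32 (2.34%), against 1.20% and 1.30%. Of these WT enhancers, 5.76% were retained on chromosome 17 and 6.99% on chromosome 21, against 3.88% over all chromosomes.

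A few loci kept several enhancers next to each other. With gaps of up to 10 kb joined, 64 clusters held 137 regions (10.02%), and 1230 stood alone. The largest held 5 regions between 88919740 and 88960484 of chromosome 12, whose nearest gene is KITLG, which encodes the ligand of the receptor KIT, 339269 to 368315 bp away. Its first region had more H3K4me1 in KO than in WT (5272 bp against 2920 bp) and overlapping H3K27ac values (11.4 and 7.67 in WT, 7.94 and 9.33 in KO), whereas its last had 21.3 and 17.9 in WT and 9.90 and 9.94 in KO. Near IGFBP4, which encodes an insulin-like growth factor binding protein, 4 regions lay between 40431504 and 40462185 of chromosome 17, all lower in KO, with log2 differences between −1.13 and −0.71.

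ARHGAP18 had the most regions, 6 of the 12 WT enhancers assigned to it (50%), on chromosome 6 between 129653789 and 129753325. From one side of the locus to the other their log2 differences in H3K27ac were −0.21, −0.60, −0.89, −0.37, 1.21 and 0.57, so that 4 were lower and 2 higher in KO. MLL1 was called at 4 of them in WT and 1 in KO, and MLL4 and p53 at none. SH3PXD2A, which encodes a scaffold of podosomes, had 5 of 34 WT enhancers retained, TOX2 4 of 17, IQSEC3 4 of 19, NBPF1 4 of 9 and BLID 4 of 9. The 4 near BLID, among them the one over MIRLET7A2, all had MLL1 in WT and 1 in KO, with no MLL4 and no p53 peak. ARHGAP29 and ARHGAP23, which encode further GTPase-activating proteins, had 3 of 4 and 3 of 11, RBFOX3, a neuronal splicing factor gene, 3 of 24, PTPN1, a tyrosine phosphatase gene, 3 of 13, and COL27A1, a collagen gene, 3 of 18. Of the fixed genes, KMT2D, KMT2A, CDKN1A and MDM2 had none. CDKN1A, the gene of the p21 inhibitor of the cell cycle, had 5 WT enhancers, KMT2D 4, KMT2A 1 and MDM2 0. With 3.87% of WT enhancers retained over all protein-coding genes, counts this small would mostly give none.

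By function, genes of the lists chosen for this cell type had between 0 and 2 retained enhancers each, apart from RBFOX3. The share of WT enhancers retained was 3.87% over all protein-coding genes (1242 of 32110). It was 9.52% for cell adhesion and matrix genes (4 of 42, at COL17A1, ITGB4, LAMB3 and PLEC), 8.16% for ERK and Hippo feedback genes (4 of 49, at ETV4 and PHLDA1), 5.00% for AP-1 and immediate early genes (3 of 60, at FOSL2, JUN and KLF6) and 6.06% for cholesterol and glycolysis genes (4 of 66, at FDFT1, HK2, INSIG1 and PFKFB3). It was 3.05% for colon epithelium and Wnt genes (5 of 164), 2.94% for p53 targets (1 of 34), 3.85% for TGF-beta and EMT genes (2 of 52), 6.25% for interferon and NF-kB genes (2 of 32) and 2.35% for G1 cyclin and growth genes (2 of 85). Among markers of other cell types it was 5.13% for blood genes (2 of 39, at RUNX3 and SPI1) and 11.8% for neuronal genes (4 of 34, at RBFOX3 and SLC17A7). Counts this small allow no ranking of the lists.

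The median log2 H3K27ac difference of the lists lay between −1.21 (interferon and NF-kB) and −0.27 (TGF-beta and EMT), beside −0.67 for all assigned regions. Near JUN, an AP-1 subunit gene, H3K27ac was 26.0 and 14.5 in WT and 10.8 and 15.8 in KO, so the genotypes overlapped. It did not overlap near FOSL2, another AP-1 subunit gene (7.65 and 9.48 against 4.97 and 3.70), near KLF6, a Krüppel-like factor gene (24.5 and 19.0 against 9.36 and 11.4), and near KRT18, an epithelial keratin gene (9.52 and 11 against 5.32 and 5.17). Near EPCAM, an epithelial adhesion gene, it was 4.62 and 5.40 in WT and 4.86 and 6.27 in KO, with overlap. At ITGB4, which encodes the integrin of hemidesmosomes, H3K27ac was 15.8 and 14.9 against 6.06 and 5.30, and p53 was present in all lists with 11.3 and 24.7 against 5.62 and 6.98. Near COL17A1, a hemidesmosome collagen gene and the nearest gene of miR-936, it was 12.1 and 10.6 against 6.31 and 8.05. EGFR (6.0 and 6.87 against 3.86 and 4.91) was lower in KO without overlap, while MET (7.79 and 10.4 against 4.42 and 8.17) and PHLDA1 (16.5 and 19.96 against 11.8 and 18.7) overlapped. Of the 30 genes in the p53 target list 1 had a retained enhancer, TNFRSF10B, which encodes a receptor for the death ligand TRAIL. It had H3K27ac of 12.3 and 13.8 in WT and 4.97 and 9.57 in KO and a p53 peak only in KO replicate 2 (9.52).

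The labelled cell type was checked at the ends of marker genes. All 6 epithelial markers (EPCAM, KRT8, KRT18, CDH1, CLDN4 and ELF3) had H3K4me3 in all 4 lists within 1 kb of a gene end. Of 5 blood markers 1 did (SPI1), of 6 neuronal markers 3 (RBFOX3, SNAP25 and SYT1) and of 6 fibroblast markers 1 (COL1A1). The fibroblast markers PDGFRA and PDGFRB had H3K4me3 in 3 lists. The blood markers PTPRC, CD3E, IKZF1 and CSF1R had it in no list, but IKZF1 and CSF1R had H3K27ac in all 4 lists.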

How the data were processed

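The series holds 20 libraries of HCT116 cells, and 18 peak lists, 1 per ChIP library, were used; the 2 inputs were not. Groups follow the titles in the labels. Peaks were called with MACS2 2.1.1 on hg38, per the submitters' processing notes, and by the deposited peak names, peaks of every library were called separately, with the input of the same genotype as control. The aligner, the read filters and the sequencing depth were not given in the sources used here. Each deposited list gives, as the authors' values, a fold enrichment (a ratio over local background), a −log10 p-value and −log10 q-value, a whole-number score and, in the narrow lists, the offset of the summit.

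Regions were built as the report describes, with Python 3.11.15, numpy 2.4.6, pandas 2.3.3, scipy 1.17.1 and matplotlib 3.10.9. Comparison regions were weighted to the retained enhancers' classes of WT H3K4me1 covered bases (6 classes) and WT H3K27ac fold (5). Shares have Wilson intervals at 95%, which cover counting error only. The merging and overlap of genomic regions were tested on simulated data, as was the principle of the weighting. The code of the Wilson intervals was not. p53 was tested over its 4 libraries with a two-sided exact permutation test. Regions went to the nearest end of a protein-coding gene (RefSeq, GRCh38.p14) up to 100 kb away, and a gene further away is given with its distance. The motif search planned around H3K27ac summits needs a genome, so RefSeq promoter windows were searched instead. That table is not complete, so distances to starts are not used.

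Genes were named by a rule: the 12 genes with most regions, the extremes of H3K27ac, MLL1, MLL4, p53 and width, up to 4 genes per list, and in every case, MDM2, CDKN1A, KMT2A and KMT2D. A few genes of this rule and of the marker lists are not reported here. KITLG, the other clusters and the genes with printed sequences were chosen after their values were seen. The regions and gene lists were chosen with earlier results of these data known. Alternatives were stricter thresholds and overlaps, lists of equal length, each library left out, chromosome X, other fold and gene distances and a replicate block.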

Additional observations from a re-analysis of the deposited data

Results flagged for a closer look

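Chromosome X lies outside the chromosomes that define the set. On it, 5 of 2809 H3K4me1 regions met the same conditions, out of 249 with H3K27ac in both WT lists and no H3K4me3. No control sample bears on this count, and it is given because these regions entered no comparison. No group held the 4 libraries that a check for a library far from the others needs.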

How the results depend on the processing

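Of 127 recomputed values for 10 results, 103 kept their call or stayed within the spread, 24 moved and none reversed. The p53 difference kept its call if its sign did, whatever its size, and the number of regions did within a set factor. Only the differences in p53 and H3K27ac and the excess of MLL1 could count as reversed. The tally depends on these rules and does not measure stability. Values marked as added were chosen after seeing the data. With −log10 q-values of at least 5, 22 regions met the rule (16 overlap the 1367), MLL4 was at 13.6%, MLL1 at 4.55% in WT and 18.2% in KO, log2 H3K27ac at −0.79 and width at 5054 bp (added: excess of MLL1 1.07 points in WT, 11.7 in KO). Overlaps of at least 200 bp gave MLL4 20.3% and MLL1 of WT 19.7%. Peaks within 500 bp of the H3K27ac summit gave MLL4 14.9% and MLL1 13.3% in WT and 14.2% in KO. The mean fold of a region's peaks gave log2 −0.52, a gene distance of 50 kb assigned 79.8%, and regions whose KO H3K4me1 overlaps KO H3K27ac (added) had MLL4 in 25.3%. The cause was not tested, although fewer peaks or bases enter these settings by construction.

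With 1 library left out, the number of regions ranged from 1411 to 1758, MLL4 from 25.8% to 29.0%, MLL1 of WT from 22.6% to 27.9% and of KO from 21.5% to 25.6%, log2 H3K27ac from −0.72 to −0.60, width from 3236 to 3756 bp, the p53 difference from 1.17 to 26.0 points, and the excess of MLL1 from 6.25 to 7.82 points in WT and 6.15 to 8.59 in KO (added). Pairing by replicate number (the replicate block) left the p53 difference at 13.6 points with an exact p of 1 and H3K27ac at −0.67. Across all settings the exact p for p53 lay between 0.333 and 1. Of 127 named regions, 1 met the rule at −log10 q-values of at least 5, 105 with H3K4me1 lists of equal length, and 125 with overlaps of at least 200 bp, where the values at MRPS27 (−0.50) and LEP (−1.29) moved. Regions were counted by whether a peak was called, so changes above the calling limit are seen only through the authors' fold values, and depth is unknown.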
